A study of Homo sapiens with 6 samples.

Results

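MUC13, MUC12 and MUC19, the mucin genes among the 426 genes that the authors' deposited table lists as changed on VPS35 depletion, were all lower in depleted MKN28 cells, as were 55.4% of the listed genes. These 3 genes were found in the table by their symbols. The values come from RNA sequencing of MKN28, a line of human gastric cancer cells, which registries trace to the line MKN74. A control vector was carried by 3 samples, and the other group of 3 samples carried a short hairpin RNA against VPS35 (shVPS35), the core subunit of the retromer complex that recycles membrane proteins from endosomes. The design text calls the samples biological replicates and does not say whether they came from separate cultures, hairpins or clones, so the errors below measure the spread between these samples only. An expression value is the deposited signal per gene and sample, whose header names no unit. Read depth is unknown.

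Mucins are large glycoproteins whose serine- and threonine-rich repeats carry dense O-linked glycans. Transmembrane mucins form the glycocalyx on the apical surface of epithelia, and gel-forming mucins are secreted and make up mucus. MUC13 is a transmembrane mucin of stomach and intestine that carries EGF-like domains next to the membrane. MUC12 is a very large transmembrane mucin best known from colon. MUC19 belongs to the secreted gel-forming mucins and is known from salivary and other mucous glands.

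The genes differ in how much transcript there is to count. MUC13 (ENSG00000173702) lies on the minus strand of chromosome 3 from 124905442 to 124953819 in GENCODE 29 on GRCh38, and its longest transcript has 2879 bases in 12 exons. MUC12 (ENSG00000205277) lies on the plus strand of chromosome 7 from 100969623 to 101018949, with a longest transcript of 16737 bases in 15 exons. It sits between the transmembrane mucin genes MUC3A (100949555 to 100968346) and MUC17 (101020072 to 101058745), and neither neighbour was in the authors' deposited table. MUC19 (ENSG00000205592) spans 40393395 to 40570832 on the plus strand of chromosome 12. Its longest annotated transcript has 24829 bases in 173 exons and is typed as a processed transcript, while the single protein-coding transcript among its 11 has 1055 bases. Antisense genes overlap MUC12 (AC105446.1) and MUC19 (AC107023.1), and no gene overlaps MUC13. No source used here says whether the counting used strand, so reads of an antisense partner could be part of the MUC12 and MUC19 values.

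The sequences before the start sites are shown because the 3 genes were lower together. They are the 250 bases upstream of each RefSeq start (GRCh38.p14, which shares its primary assembly with the GRCh38.p13 of the submitters' processing notes), at chr3:124934752-124935001 on the minus strand, chr7:100969315-100969564 on the plus strand and chr12:40393144-40393393 on the plus strand. For MUC13 this start, just below the window, is also that of the 2879-base transcript in GENCODE 29 (124934751), while a noncoding transcript extends the gene to 124953819, so the window lies inside the span given above. For MUC12 the window ends at 100969564, just before the RefSeq start, and the GENCODE start lies further downstream, at 100969623. Each sequence is written 5′ to 3′ in the direction of its gene. Capitals mark matches to 3 motifs, searched on both strands. The TATA box was searched as TATAAA. For AP-1, the factor made of FOS and JUN family proteins, the letters were TGANTCA. The letters for GATA factors, which act in gut epithelium, were AGATAA.
MUC13: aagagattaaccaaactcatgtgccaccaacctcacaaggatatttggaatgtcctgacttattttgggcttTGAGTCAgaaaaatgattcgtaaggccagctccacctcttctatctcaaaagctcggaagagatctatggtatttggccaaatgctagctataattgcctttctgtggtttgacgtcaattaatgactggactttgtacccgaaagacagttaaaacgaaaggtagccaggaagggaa
MUC12: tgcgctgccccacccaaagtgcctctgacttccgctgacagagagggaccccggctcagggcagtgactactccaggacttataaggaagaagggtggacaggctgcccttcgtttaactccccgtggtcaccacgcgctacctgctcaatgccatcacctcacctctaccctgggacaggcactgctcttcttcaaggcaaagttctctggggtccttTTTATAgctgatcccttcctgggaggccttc
MUC19: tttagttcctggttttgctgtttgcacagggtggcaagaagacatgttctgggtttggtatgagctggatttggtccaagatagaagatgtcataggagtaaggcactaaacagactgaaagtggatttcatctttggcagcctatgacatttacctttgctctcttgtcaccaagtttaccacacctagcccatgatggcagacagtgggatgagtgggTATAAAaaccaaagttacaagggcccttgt

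MUC12 and MUC19 each held a TATA box match, at 31 and 30 bases before the RefSeq start, and MUC13 held none. From the GENCODE start of MUC12 its match lies further away. The MUC19 match read in the direction of the gene and the MUC12 match on the opposite strand. MUC13 held an AP-1 match 178 bases before the start, which the other two lacked. None of the 3 windows held a GATA match. Among 35093 RefSeq promoter windows of the same length, 10.7% held the TATA pattern, 6.57% the AP-1 pattern and 9.17% the GATA pattern, each searched on both strands. The MUC12 window had a GC content of 57.6%, close to the median of 58% over all windows, and those of MUC13 and MUC19 had 41.6% and 44.4%. No searched motif was thus in all 3 windows, and a match or its lack is only a description of these letters.

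VPS35, the target of the hairpin, followed the labels. The mean was 65.3 ± 1.67 with the vector and 13.4 ± 1.97 with shVPS35 (SD, n = 3 per group), and the depleted cells kept 20.6% of the vector level. With 1 knockdown group, loss of VPS35 and other actions of the hairpin cannot be told apart.

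MUC13, the transmembrane mucin, was by far the most abundant of the 3 and fell to about the same level in every depleted sample. Vector samples 1 to 3 had expression values of 15.71, 15.97 and 14.96, and shVPS35 samples 1 to 3 had 6.92, 7.44 and 7.48. The groups were far apart, and the lowest vector sample was well above the highest depleted one. The mean went from 15.5 ± 0.524 to 7.28 ± 0.312 (SD, n = 3 per group), which left 46.8% of the vector level. On the log2(value + 1) scale the difference of shVPS35 from vector was -0.999 ± 0.075 (SE; limma adjusted p = 4.3e-06). MUC13 alone of the 3 passed the filter on low values. Of the 292 listed genes that reached a value of 1 in 3 or more samples, 100% passed this test at an adjusted p of 0.05. Every gene in the table was selected on these same samples, so this p sets the MUC13 difference against the spread between samples and is no independent evidence of change. In bulk RNA, fewer cells that express a gene and less RNA per cell cannot be told apart. With 3 samples a group, the smallest two-sided p of an exact permutation test is 0.1.

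MUC12, the colonic transmembrane mucin, was near the bottom of the measured range in both groups. The vector samples had expression values of 0.22, 0.24 and 0.48, against 0.09, 0.08 and 0.13 with shVPS35. The highest value in each group was that of sample 3, and the groups did not overlap. The mean went from 0.313 ± 0.145 to 0.1 ± 0.0265 (SD, n = 3 per group), or 31.9% of the vector level. Without vector sample 3 the vector mean was 0.23 and 43.5% was left. Values carry 2 decimals, so a step of 0.01 is the smallest that the file can show. MUC12 did not pass the filter on low values and has no limma test with it. The plain difference on the log2(value + 1) scale was -0.25, and -0.16 without vector sample 3.

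MUC19, the gel-forming mucin, had the largest relative fall of the 3 and the least even values. Expression values of 0.67, 1.82 and 0.54 were listed for the vector samples, against 0.30, 0.23 and 0 with shVPS35. Vector sample 2 stood at more than the other vector samples together, shVPS35 sample 3 was listed at 0, and the groups did not overlap. The mean went from 1.01 ± 0.704 to 0.177 ± 0.157 (SD, n = 3 per group), or 17.5% of the vector level. Without vector sample 2 this share was 29.2%, without shVPS35 sample 3 it was 26.2%, and without shVPS35 sample 1 it was 11.4%. MUC19 also missed the filter on low values. Its plain difference on the log2(value + 1) scale was -0.73, and -0.46 without vector sample 2.

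**Figure D1:**
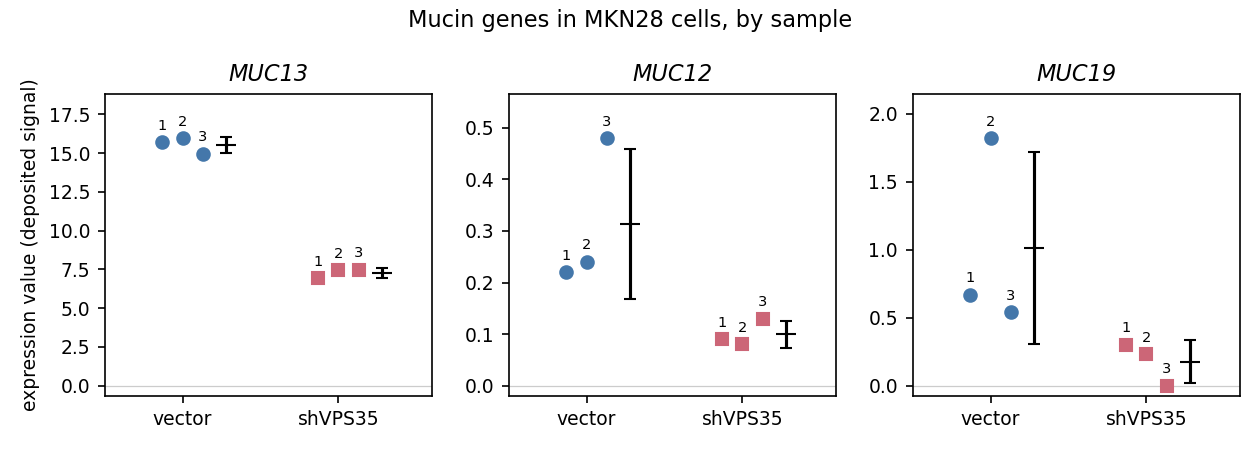
Expression value (deposited signal, linear axes that differ between panels) of MUC13, MUC12 and MUC19 in each vector sample (circles) and shVPS35 sample (squares), numbered by replicate, with the group mean and SD beside the points (n = 3 per group). MUC13 runs from 14.96 to 15.97 in vector and from 6.92 to 7.48 in shVPS35 samples, while MUC12 and MUC19 each have a vector sample well above the other two.

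The median log2 ratio of the deposited group means was -1.65 over the 3 mucin genes, -1.47 over the listed genes that fell and -0.99 over all listed genes. By the log2 fold changes of the authors' deposited table the order differs, with medians of -1.10 for the mucin genes, -1.55 for the genes that fell and -1.08 for all. In all 3 mucin genes every vector sample lay above every shVPS35 sample, as the groups did not overlap for 93.4% of the listed genes. That count is no result particular to mucins, since the table was made of genes that differ between these samples. Nor is the shared direction of only 3 genes, as 55.4% of the listed genes were lower.

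The order of levels in the vector samples was MUC13, MUC19 and MUC12, at ranks 55, 262 and 364 among the 426 listed genes. TPM and FPKM, which are among the measures that RSEM writes, are both per length, but the header names neither. Levels of different genes are thus compared only on the assumption that the values are per length. The vector values of MUC19 (0.54 to 1.82) and MUC12 (0.22 to 0.48) did not overlap. In the shVPS35 samples the range of MUC12 (0.08 to 0.13) lay inside that of MUC19 (0 to 0.30), so their order there was within the spread. MUC13 made up 88.6% to 94.6% of the summed value of the 3 genes in the vector samples and 94.7% to 98.3% in the shVPS35 samples. That sum was 15.98 to 18.03 in vector and 7.31 to 7.75 in shVPS35 samples.

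The vector samples varied more for MUC19 than for most genes of similar level. Its coefficient of variation was 69.8% in the vector samples. Of the 136 other listed genes whose vector mean lay within a factor of 2 of its own, 8 varied at least as much, and their median was 21.8%. For MUC12 the coefficient was 46.2% against a median of 26.8% over 85 genes of similar level, of which 16 varied at least as much. MUC13 was steadier than most, at 3.37% against a median of 7.29% over 60 genes. In the shVPS35 samples MUC12 varied less than its peers, with 26.5% against a median of 56.9% over 42 genes. MUC19 had 88.8% there against 40.0% over 55 genes, and MUC13 had 4.29% against 12.1% over 86 genes.

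**Figure D2:**
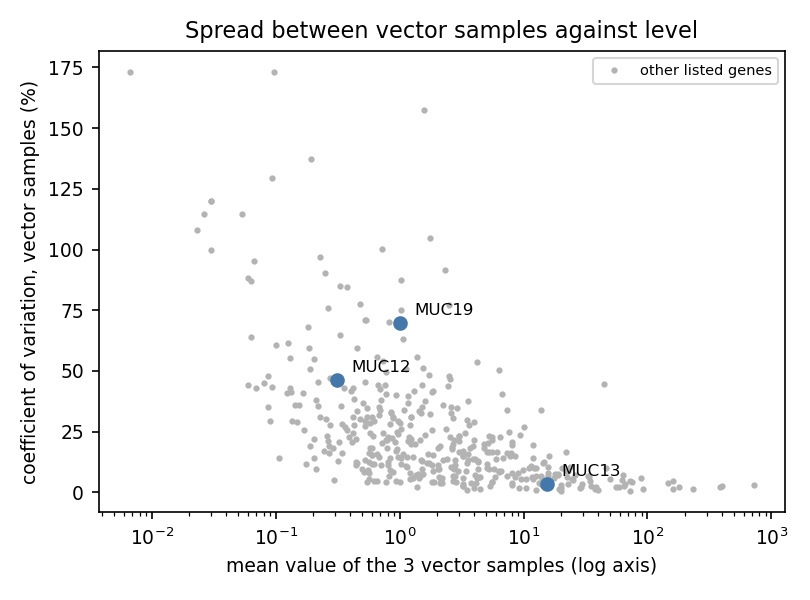
Coefficient of variation of the 3 vector samples in percent (y axis) against their mean expression value (x axis, log scale) for each listed gene with a vector mean above 0, with the 3 mucin genes as large points. MUC13 lies low at 3.37%, MUC12 has 46.2%, and MUC19, at 69.8%, is among the most variable genes of its level.

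The fold change that the authors deposited and the one their deposited values give were nearly equal for MUC13 and differed for the other two. For MUC13 the log2 value of the authors' deposited table was -1.10 and the ratio of its group means gives -1.09. For MUC12 the authors' deposited table gives -1.06, while the ratio of the means gives -1.65, a larger fall. For MUC19 it is the other way round, with -4.55 in the authors' deposited table and -2.52 from the means. The authors' value leaves a ratio of 0.043 for MUC19, as the authors' deposited table gives it, where the means leave 17.5% of the vector level.

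Among the 423 listed genes with both group means above 0, the median absolute gap between the 2 log2 values was 0.0875. The gap of MUC19, -2.04, was the second in size after that of CHML (2.33), a gene named here after its value was seen. MUC12, with a gap of 0.59, came at rank 34, and MUC13, with -0.01, at rank 402. A gap above 0.5 was found for 47 genes, of which 45 belonged to the 272 genes whose group means were both below 5 and 2 to the other 151. No source used here names the model behind the authors' fold change, and the cause of the gap was not tested.

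**Figure D3:**
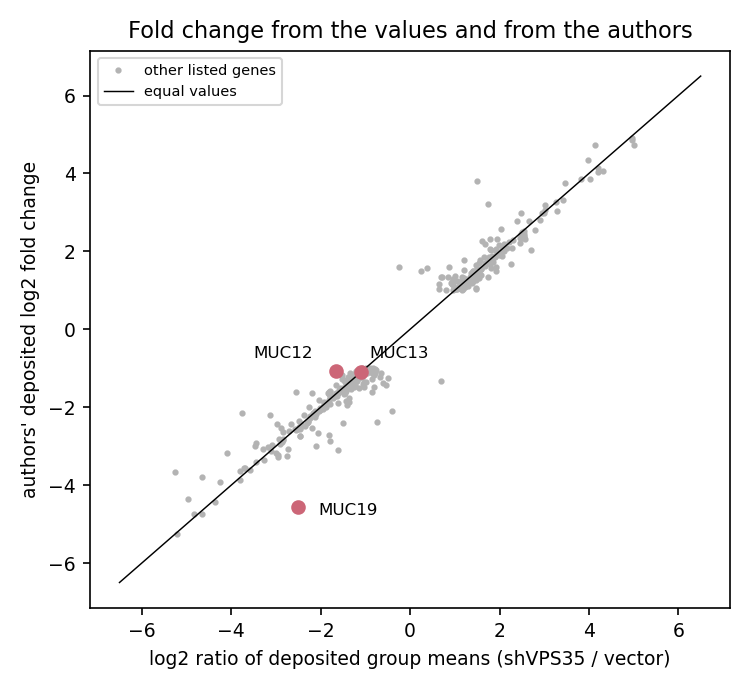
Log2 fold change as deposited by the authors (y axis) against the log2 ratio of the deposited group means of shVPS35 over vector (x axis) for the listed genes with both means above 0, with the 3 mucin genes as large points and a line of equal values. MUC13 lies on the line, MUC12 above it and MUC19 far below it (-4.55 against -2.52).

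By the size of the authors' fold change, MUC12 and MUC13 were just inside the limit of the table. Every listed gene has an absolute log2 fold change above 1 and an adjusted p below 0.05 in the authors' deposited table. MUC12 ranked 219 and MUC13 ranked 204 among the 236 genes that fell, while MUC19 ranked 5. Values of genes outside the limit were not analysed here. In the authors' deposited table the adjusted p was 9.3e-28 for MUC13, 1.7e-06 for MUC19 and 0.0092 for MUC12. The p-values and adjusted p-values put the number of genes that the authors tested at 16063, of which 2.65% were listed. By p, MUC13 ranked 275, MUC19 1338 and MUC12 3121 among them.

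MUC13, MUC12 and MUC19 were the only members in the table of a list of 24 mucin and mucin-like genes. That is 12.5% of the list, where 2.65% of all genes tested were listed. This list and those that follow were drawn up with results of these data known, so their counts are descriptions only. The other 21 were not listed, among them the gel-forming MUC2, MUC5AC, MUC5B and MUC6 and the transmembrane MUC1, MUC3A, MUC4, MUC16 and MUC17. For a gene outside the table, the authors' limits were not met or no test was made, and its level is not analysed here.

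Of 34 genes of mucin-type O-glycosylation, the pathway that builds the glycan chains of mucins, 2 were listed (5.88%, where 2.65% of the genes tested were) and both fell, as did 55.4% of all listed genes. GCNT3 encodes a branching enzyme of O-glycans that is abundant in mucus-producing tissue. It was at 3.21, 3.3 and 3.98 in the vector and at 1.74, 2.30 and 1.34 in the shVPS35 samples. The groups did not overlap, and the means were 3.497 ± 0.421 and 1.79 ± 0.482 (SD, n = 3 per group). Its log2(value + 1) difference was -0.70 ± 0.16 (SE, limma adjusted p = 0.0025). B3GNT3, which encodes an enzyme that extends O-glycans with N-acetylglucosamine, had 3.32, 3.18 and 3.17 with the vector and 1.13, 1.20 and 1.84 with shVPS35. The means were 3.22 ± 0.0839 and 1.39 ± 0.391 (SD, n = 3 per group), with shVPS35 sample 3 the highest of its group. On the log2(value + 1) scale B3GNT3 differed by -0.83 ± 0.14 (SE, limma adjusted p = 4.7e-04). As for MUC13, both genes were selected on these same samples, so these p-values are no independent evidence of change. The shares of the vector level that were left, 51.3% for GCNT3 and 43.1% for B3GNT3, stood on either side of the 46.8% of MUC13. The authors' log2 fold changes of GCNT3, B3GNT3 and MUC13 (-1.12, -1.08 and -1.10) were all just inside their limit of 1. The closeness of these shares is thus no result particular to mucins. The 32 members that were not listed include the GALNT enzymes that start the chains and C1GALT1, which makes the common core. The list holds the sulfotransferase genes CHST4 and CHST5 but not CHST2 of the same family. CHST2, named here after its value was seen, was listed and higher with shVPS35 (mean 17.9 against 8.01). The shared fall thus holds for the genes of this list only.

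From a list of 20 genes of mucous secretory cells, PSCA, GKN1, GKN2 and DMBT1 were listed, and all 4 fell, where 2.65% of the genes tested were listed and 55.4% of those fell. PSCA, a surface antigen of gastric epithelium, was at 167.10, 160.64 and 152.74 in the vector and at 71.92, 70.99 and 66.09 in the shVPS35 samples, which left 43.5%. GKN1 and GKN2, the gastrokines secreted by surface mucous cells, had 18.3% and 33.6% of the vector level left. DMBT1, a mucin-like scavenger receptor glycoprotein of mucosal surfaces, had 3.49% left. Its vector values of 9.62, 12.91 and 7.58 were highest in sample 2, as for MUC19. The trefoil factors TFF1, TFF2 and TFF3 and the secretory cell factors AGR2 and SPDEF were not listed. Of the 18 regulators of mucin transcription and the 20 apical scaffold and mucin partner genes looked for, ERBB2 and EZR among them, none was listed, against 2.65% of the genes tested. Neither list is complete. The regulator list holds no FOS or JUN family gene. FOSL1, a gene of the FOS family, was listed and lower with shVPS35 (mean 13.6 against 29.1). It was named here after its value was seen, and a link to the mucin genes was not tested. USH1C, an apical scaffold gene outside the apical list, was listed and higher with shVPS35 (mean 0.843 against 0.06). EPS8, an actin regulator gene of microvilli also outside that list, was lower (mean 15.3 against 33.3). Both were named here after their values were seen and are examples only.

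**Figure D4:**
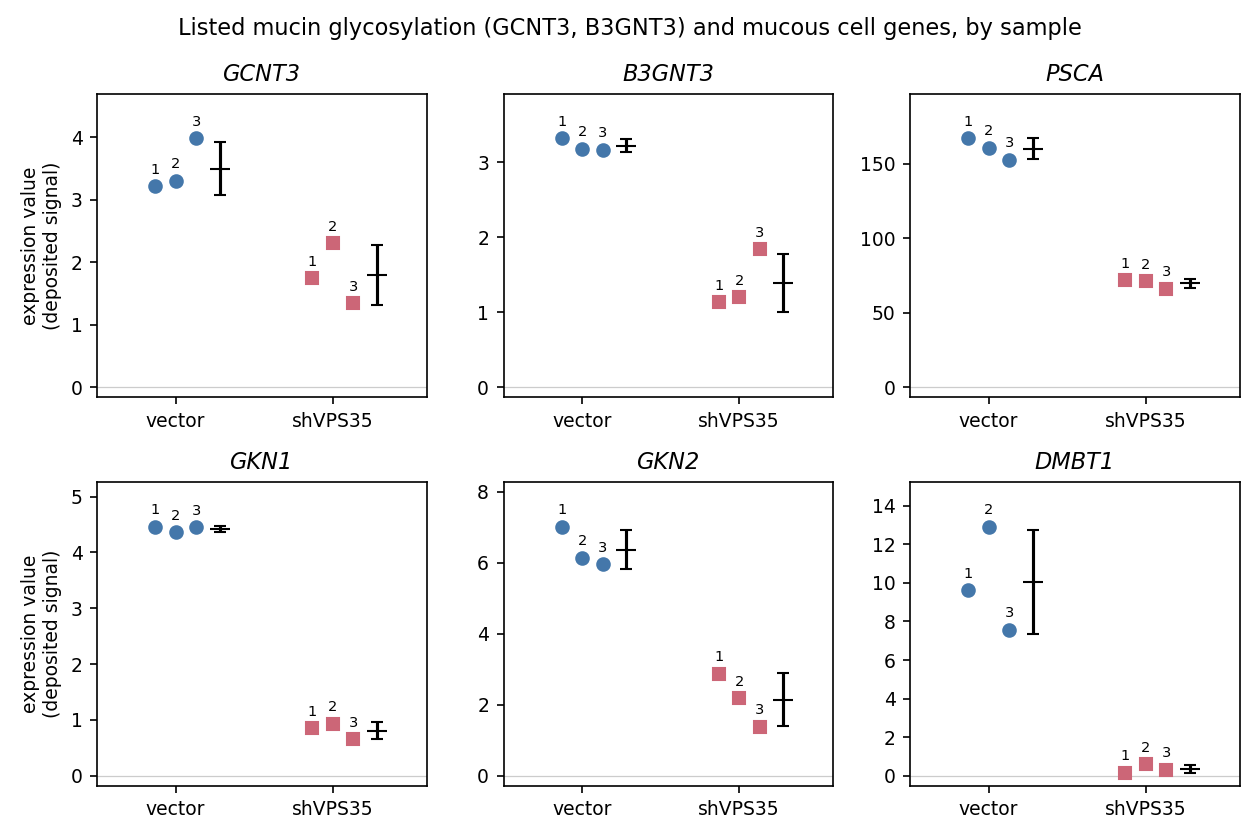
Expression value (deposited signal, linear axes that differ between panels) of the listed O-glycosylation genes GCNT3 and B3GNT3 and of PSCA, GKN1, GKN2 and DMBT1 in each vector sample (circles) and shVPS35 sample (squares), numbered by replicate, with the group mean and SD (n = 3 per group). In each of the 6 genes all shVPS35 samples lie below all vector samples.

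Markers of the labelled cell type could be read only in part, since the table holds changed genes. Of 12 markers of gastric or intestinal epithelium, GKN1 and GKN2 were listed, and general epithelial markers such as EPCAM and KRT8 were not. Of 15 markers of fibroblasts, endothelium and immune cells, 4 were listed. Their summed value was 57.99 to 61.25 with the vector and 20.79 to 24.21 with shVPS35, most of it from CD68, a lysosomal glycoprotein that epithelial cells also express. Without CD68 the sum was 2.52 to 4.24 in vector and 3.76 to 6.96 in shVPS35 samples, and its 3 genes did not move together. The fibroblast proteoglycan gene DCN was higher with shVPS35 (mean 4.19 against 1.48). The endothelial cadherin gene CDH5 was lower (0.547 against 0.98). LUM, another fibroblast proteoglycan gene, had a lower mean (0.56 against 1.17), but its groups overlapped. Its values were 0.33 to 0.99 in shVPS35 and 0.69 to 1.52 in vector samples. The collagen genes COL1A1 and COL1A2, PECAM1 and PTPRC were not listed. The part of other cell types in the mucin values was not tested.

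The listed genes whose values ran most like MUC13 over the 6 samples were CDKN1A (Pearson's r = 0.999 on the log2(value + 1) scale), LINC00707 (0.998) and GPRC5A (0.998), out of 316 genes that averaged at least 1 in either group. For MUC12 they were PSG4 (0.983), MFSD2A (0.979) and AL034430.1 (0.974), and for MUC19 RUNX2 (0.937), GBP3 (0.927) and FBP1 (0.920). Such values are high by construction, since the genes were listed for differing between the same 2 groups of samples, and 130 of the 316 genes reached 0.9 with MUC13. With MUC12 12 genes reached 0.9 and with MUC19 6 genes. Between the mucin genes, r over the 6 samples was 0.779 for MUC13 and MUC12, 0.785 for MUC13 and MUC19 and 0.415 for MUC12 and MUC19. The high vector sample was sample 3 for MUC12 and sample 2 for MUC19.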

How the data were processed

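RNA-seq values came from 6 samples of MKN28 cells, 3 per group by title. Per the labels' protocols, RNA was extracted with TRIzol and treated with DNase I. The submitters' processing notes name fastp, HISAT, RSEM and GRCh38.p13, without versions or roles. The authors' deposited table gives, per gene, an expression signal per sample and its group mean, the fold ratio and log2 fold change of shVPS35 over vector, a p-value and an adjusted p-value. No source used here names their test. Read depth is unknown, so precision was judged from replicates.

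Log2(value + 1) was tested with limma 3.58.1 (trend and robust, statmod 1.5.0, R 4.3.3) on group alone, in genes that reached a value of 1 in 3 or more samples, with Benjamini-Hochberg adjustment and a threshold of 0.05. This scale understates changes of low genes. The test was checked on simulated data. The number of genes tested by the authors is the one that gave 387 of 422 genes a whole-number rank within 0.01. Python 3.11.15, numpy 2.4.6 and pandas 2.3.3 did the rest. GENCODE 29 matched 421 of 426 identifiers, and RefSeq gave promoters for all 3 mucin genes. Other pseudocounts, filters, scalings and limma settings, a replicate block and leaving out each sample were tried. Gene lists and members were chosen with earlier results of these data known. Named genes were the 3 mucin genes, VPS35, each list's listed members (at most 5) and the 3 genes most like each mucin gene. CHML, CHST2, FOSL1, USH1C and EPS8 were named after their values were seen.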

Additional observations from a re-analysis of the deposited data

How the results depend on the processing

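The MUC13 difference kept its direction and stayed past the threshold under all 14 alternatives run. MUC12 and MUC19 were lower in shVPS35 cells under every alternative run for them, but their log2 difference depends on the pseudocount. With 0.1 it was -1.0 for MUC12 and -2.05 for MUC19, and with 5 it was -0.0588 and -0.21. Without a filter on low values the limma adjusted p was 0.0213 for MUC12 and 0.0179 for MUC19, among genes already called on these samples. Filtering on 5 or more cut the genes past the threshold from 292 to 140 of 141 tested and left MUC12 and MUC19 out. Leaving out each sample in turn gave -1.02 to -0.97 for MUC13, -0.30 to -0.16 for MUC12, -0.89 to -0.46 for MUC19 and -2.31 to -2.12 for VPS35. Past the threshold were 248 to 252 genes of the 255 or 256 that then passed the filter. Of these, 119 to 121 were lower without a vector sample and 154 or 155 without an shVPS35 sample, against 160 in the main setting. The filter still asked for 3 samples, so genes that reached a value of 1 only in the reduced group could not pass. Deviations of same-numbered samples correlated at -0.01, -0.04 and 0.03. These genes were selected for a group difference, so such values cannot decide whether same-numbered samples shared a culture or batch. With the replicate block 291 genes passed, and MUC13 had a limma adjusted p of 1.4e-04. No such fit, nor one without trend, was made for MUC12 and MUC19, which have no test in the main setting.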
